A study of Rattus norvegicus with 24 samples.

Results

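The genes described here are 9 transcripts used as markers of the glutamatergic neurons of the cerebral cortex: Slc17a7, Neurod6, Neurod2, Tbr1, Emx1, Cux2, Rorb, Fezf2 and C1ql3. They were taken by gene symbol from 2 tables of 37403 identifiers each, and all 9 were found in both. The tables hold RNA sequencing of bilateral tissue punches from the brains of adult rats at least 60 days old, labelled male and of the first generation. The nucleus accumbens (NAC) is a striatal region, and the ventral tegmental area (VTA) is a midbrain region that holds dopamine neurons. Fathers of SAL-sired offspring had access to saline, and fathers of MOR-sired offspring had access to morphine, by self-administration over 60 days. Each sire group had 7 NAC libraries and 5 VTA libraries. The sources used here give neither the strain nor the mothers' treatment nor any treatment of the offspring themselves. A punch holds every cell type under it, and the labels name neither the animal nor the litter behind a library, so the tests set differences against the spread among libraries only, which may be technical in part.

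Excitatory neurons of the cortex load glutamate into synaptic vesicles with the transporter encoded by Slc17a7 (VGLUT1), while many subcortical excitatory neurons use that of Slc17a6 (VGLUT2). Projection neurons of the striatum are GABAergic and depend on neither transporter. Emx1 is a homeobox gene of the dorsal forebrain. Neurod2 and Neurod6 are bHLH transcription factors of differentiating and mature pyramidal neurons, and Tbr1 is a T-box factor of early-born and deep-layer neurons. Cux2 marks upper layers, Rorb the middle layer that receives thalamic input, grouped here with the upper layers, and Fezf2 the neurons that project below the cortex. C1ql3 encodes a secreted C1q-like synaptic protein. Neurod6 is also known from a subset of VTA dopamine neurons. In these bulk punches, fewer cells of a type and less RNA per cell cannot be told apart.

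The promoters of 4 of the genes are shown, those of Slc17a7, Neurod2, Neurod6 and Rorb. Slc17a7 and Neurod2 were the most closely correlated pair across NAC punches, and Rorb had the lowest slope on Slc17a7. Neurod6 had a Pearson's r of 0.972 with Slc17a7, below Tbr1 (0.994) and C1ql3 (0.986), whose windows are not shown. The sequences are the RefSeq windows of build GRCr8, from 250 bases before to 50 bases after the start. All 9 genes had such a window. Capitals mark the E-box CAGATG, a motif of the NeuroD family, searched on both strands.
Neurod2, chr10:83824228-83824527, minus strand: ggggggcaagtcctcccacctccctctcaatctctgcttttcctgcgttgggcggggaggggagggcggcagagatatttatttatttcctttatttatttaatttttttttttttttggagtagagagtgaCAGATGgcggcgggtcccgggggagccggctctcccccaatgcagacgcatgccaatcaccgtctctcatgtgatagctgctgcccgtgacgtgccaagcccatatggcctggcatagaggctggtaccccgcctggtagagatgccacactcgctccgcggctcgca
Neurod6, chr4:86180106-86180405, minus strand: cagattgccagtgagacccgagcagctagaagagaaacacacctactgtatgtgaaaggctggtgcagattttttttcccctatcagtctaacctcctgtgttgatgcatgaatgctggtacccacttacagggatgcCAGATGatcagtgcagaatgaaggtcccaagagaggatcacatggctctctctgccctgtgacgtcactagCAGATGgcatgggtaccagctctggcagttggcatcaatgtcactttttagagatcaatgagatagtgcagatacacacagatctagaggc
Slc17a7, chr1:104785955-104786254, plus strand: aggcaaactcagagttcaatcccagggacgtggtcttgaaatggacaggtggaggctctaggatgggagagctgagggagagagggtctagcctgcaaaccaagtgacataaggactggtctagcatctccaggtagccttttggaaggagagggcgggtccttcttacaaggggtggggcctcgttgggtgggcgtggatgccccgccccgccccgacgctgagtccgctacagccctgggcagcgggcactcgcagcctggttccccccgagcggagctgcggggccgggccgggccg
Rorb, chr1:225970924-225971223, minus strand: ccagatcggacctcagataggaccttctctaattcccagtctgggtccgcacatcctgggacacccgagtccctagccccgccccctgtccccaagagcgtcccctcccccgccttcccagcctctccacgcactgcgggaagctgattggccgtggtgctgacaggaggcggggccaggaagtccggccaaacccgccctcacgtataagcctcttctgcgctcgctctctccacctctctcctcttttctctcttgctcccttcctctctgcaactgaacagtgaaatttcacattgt
The E-box stood 2 times in the window of Neurod6, once in that of Neurod2 and in none of the other 7, and 16.6% of all 33469 promoter windows held it. The T-box half-site AGGTGTGA, searched on both strands and sharing no letters with the E-box matches, was in none of the 9 windows and in 1.1% of all windows. CpG dinucleotides numbered 46 in the window of Cux2, 23 in Fezf2, 17 in Slc17a7, 16 in Neurod2, 15 in Rorb, 14 in Emx1, 9 in C1ql3, 6 in Tbr1 and 2 in Neurod6, against a median of 7. Cux2 thus had more CpG than 98.6% of windows, and Neurod6 more than 13.6%. These matches describe letters only.

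Library totals lay between 21.9 and 43.5 M estimated counts (1 M being 1000000). Levels are counts per 1000000 counts (CPM), and since the deposited counts were built from length-corrected abundances, levels of different genes can be compared. NAC punches held striatal transcripts to very different degrees. Ppp1r1b (DARPP-32) averaged 1243 ± 915 CPM (SD, n = 14), from 159.7 CPM in MOR-sired NAC 2 to 3119 CPM in MOR-sired NAC 4. Its mean in the VTA was 64.1 CPM. VTA punches held Th, the enzyme that limits dopamine synthesis, at 2116 ± 597 CPM (n = 10). A pair of libraries stood apart in the 9 genes: MOR-sired NAC 4 had the lowest level of all 9 in the NAC, and SAL-sired VTA 2 had the highest level of 6 of the 9 in the VTA. Against the male label, 4 VTA libraries (SAL-sired VTA 5 and MOR-sired VTA 3, 4 and 5) held 78.9 to 108 CPM of Xist, with Ddx3y, a Y-linked gene, at 0.072 CPM or less. Xist was at most 0.253 CPM in the other VTA libraries. Values without these libraries stand beside the results they move.

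All 9 genes were present in every NAC library, and Slc17a7 was by far the highest. It averaged 943 ± 386 CPM (SD, n = 14), with a lowest level of 110.6, a median of 1072 and a highest level of 1366 CPM. C1ql3 followed with 99.6 ± 42.6 CPM, from 12.9 through a median of 109.6 to 154 CPM. The synaptic genes thus stood above the transcription factors, and Slc17a7 exceeded C1ql3, and C1ql3 exceeded Tbr1, in 14 of 14 libraries. Tbr1 averaged 55.1 ± 20.9 CPM (9.03 to 82.3), Neurod6 54.8 ± 18.4 CPM (9.09 to 82.4) and Neurod2 47.3 ± 20.5 CPM (4.67 to 73.8). The order of Tbr1 and Neurod6 was not resolved, since Tbr1 was the higher in 7 of 14 libraries, while Neurod6 exceeded Neurod2 in 11. Cux2 averaged 25.9 ± 11.1 CPM (9.91 to 48.5), Fezf2 16.4 ± 7.12 CPM (4.02 to 30.5), Rorb 8.62 ± 2.06 CPM (3.16 to 12.2) and Emx1 5.77 ± 2.65 CPM (1.00 to 9.64). Each of these exceeded the next in 12 or 13 of 14 libraries.

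In the VTA the 9 genes were low and ordered differently. Cux2 was the highest on average at 16.5 ± 1.94 CPM (SD, n = 10) and Rorb stood at 8.25 ± 1.58 CPM, the members with the smallest relative spread there. Slc17a7 averaged 13.2 ± 25.6 CPM, but its median was 4.07 CPM and it ranged from 0.519 to 84.5 CPM. The SD of Slc17a7 exceeded its mean. SAL-sired VTA 2 held its highest level, and the next library stood at 14.9 CPM. Neurod6 averaged 8.03 ± 6.05 CPM, C1ql3 7.12 ± 4.34, Tbr1 2.07 ± 5.28, Neurod2 1.81 ± 2.12, Emx1 0.248 ± 0.528 and Fezf2 0.135 ± 0.183 CPM. Fezf2 was listed at 0 in 3 of the 10 libraries. Mean levels of Rorb were thus 8.62 CPM in NAC and 8.25 CPM in VTA, while the medians of Slc17a7 were 1072 and 4.07 CPM. The regions are set side by side and were not tested against each other, since each has its own deposited table.

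**Figure D1:**
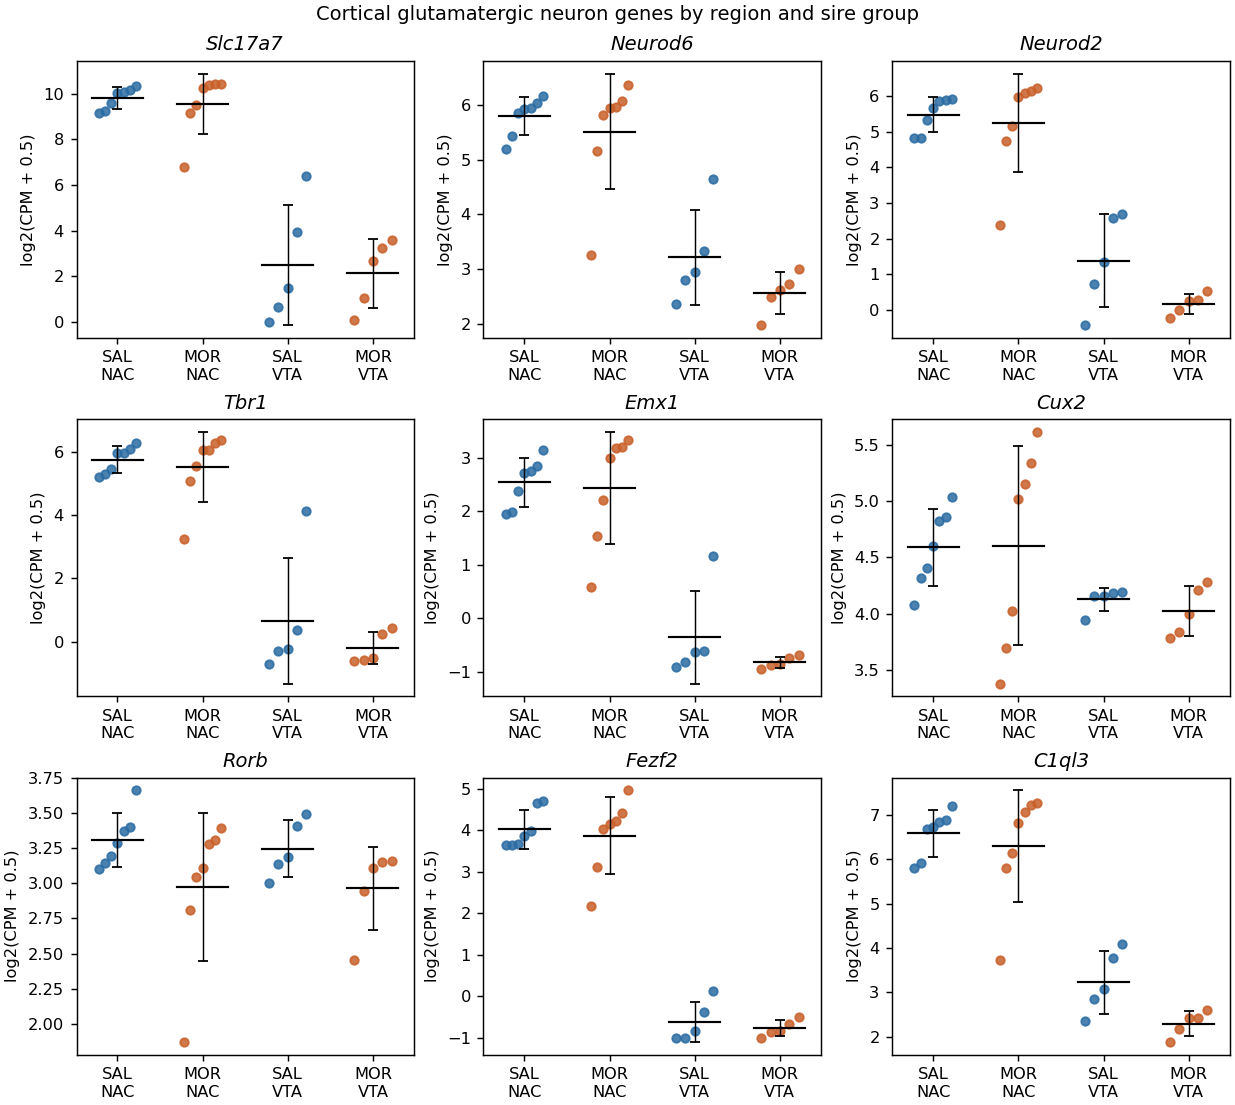
Levels of the 9 genes in 4 groups, on a log2(CPM + 0.5) axis; each point is a library, the horizontal bar the mean and the error bar the SD on that scale (7 libraries a group in NAC, 5 in VTA). Rorb lies at like levels in both regions, and MOR-sired NAC 4 is the lowest NAC point of every panel. SAL-sired VTA 2 is the highest VTA point of the Slc17a7, Neurod6, Tbr1 and Emx1 panels.

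Across NAC punches the levels of Neurod2, Tbr1 and C1ql3 followed that of Slc17a7 closely. Per 1000 CPM of Slc17a7 there were 42.2 to 54.2 CPM of Neurod2 in the 14 libraries, a coefficient of variation of 6.74%, although Slc17a7 itself spanned 12.4-fold. The same ratio varied by 11.6% for C1ql3 (91.4 to 138 CPM), 12.2% for Tbr1 (50.1 to 81.6 CPM) and 18.8% for both Neurod6 (45.5 to 82.2 CPM) and Emx1 (4.23 to 9.04 CPM). It was far looser for the other 3 genes, at 37.3% for Fezf2 (9.37 to 36.3 CPM), 53.3% for Rorb (6.09 to 28.5 CPM) and 55.5% for Cux2 (21.6 to 89.6 CPM). Apart from Neurod2 and C1ql3, each gene had its highest ratio in MOR-sired NAC 4. Without that library the coefficient was 17.1% for Cux2, 7.35% for Tbr1, 33.9% for Rorb and 30.3% for Fezf2, and 5.51% for Neurod2. Cux2 was thus the loosest with MOR-sired NAC 4 in, and Rorb and Fezf2 were the loosest without it.

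Pearson's r with Slc17a7 over the 14 NAC libraries, on log2(CPM + 0.5) with TMM scaling, was 0.998 for Neurod2, 0.994 for Tbr1, 0.986 for C1ql3, 0.972 for Neurod6 and 0.951 for Emx1. Each of the 5 had a permutation p of 1e-05, the smallest that 100000 permutations can give, and an adjusted p of 2.43e-05 over the 17 NAC pairs tested. Spearman's rho of the same pairs was 0.965, 0.974, 0.974, 0.873 and 0.947, with permutation p of at most 0.00014 and adjusted p of at most 0.000297. MOR-sired NAC 4 and 6 lay farthest from the median of Slc17a7, and without them r was 0.991, 0.977, 0.947, 0.848 and 0.955. These relations also held inside each sire group, with r from 0.895 to 0.987 in SAL-sired and from 0.959 to 0.999 in MOR-sired NAC. The labels name the NAC libraries by the numbers 1 to 14, and r lay between 0.829 and 0.999 within names 1 to 8 and within names 9 to 14.

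The layer genes followed Slc17a7 less uniformly. Cux2 had r = 0.856 (permutation p = 1e-05, adjusted p = 2.43e-05) and 0.886 when that pair of libraries was left out. Its rho was 0.921 (permutation p = 2e-05, adjusted p = 5.67e-05). Fezf2, the gene of subcortically projecting neurons, had r = 0.832 (permutation p = 0.00094, adjusted p = 0.00178) and 0.662 without the pair. The rho of Fezf2 was 0.675 (permutation p = 0.00999, adjusted p = 0.017). Rorb had r = 0.859 (permutation p = 0.00592, adjusted p = 0.00719), and 0.168 without the pair. Its rho was 0.516 (permutation p = 0.064, adjusted p = 0.0777). The relation of Rorb with Slc17a7 thus rests on MOR-sired NAC 4 and 6, and r was 0.942 among MOR-sired libraries, which hold both, and 0.468 among SAL-sired ones. Within the library names 1 to 8 and 9 to 14, r was 0.91 and 0.878 for Cux2, 0.643 and 0.968 for Fezf2, and 0.368 and 0.943 for Rorb. By Pearson's r all 17 pairs passed at an adjusted p under 0.05 with every library in, and 9 of 17 passed without MOR-sired NAC 4. By rho 12 of 17 passed with every library in.

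How steeply each gene rose with Slc17a7 differed as well. On log axes a slope of 1 means proportion, and the slopes were 1.05 for Neurod2, 0.97 for C1ql3, 0.84 for Tbr1, 0.79 for Neurod6, 0.77 for Emx1, 0.62 for Fezf2, 0.58 for Cux2 and 0.38 for Rorb. Without MOR-sired NAC 4 those of Cux2 and Emx1 were 1.03 and 1.10, that of Rorb was 0.18 and that of Neurod6 0.65, while the slopes of Neurod2, C1ql3, Tbr1 and Fezf2 were 1.08, 1.05, 0.88 and 0.63. A straight line of CPM on Slc17a7 CPM, chosen after seeing the data, met zero Slc17a7 at 61.0% of the mean level for Rorb, 25.5% for Neurod6, 24.8% for Fezf2, 8.61% for Tbr1 and 6.99% for Cux2. The line of Neurod2 met it at −5.42% and that of C1ql3 at −0.987%. Without MOR-sired NAC 4 the value was 81.2% for Rorb, 37.9% for Neurod6 and −9.58% for Cux2. Rorb was therefore the member whose NAC level moved least with Slc17a7, with or without that library.

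**Figure D2:**
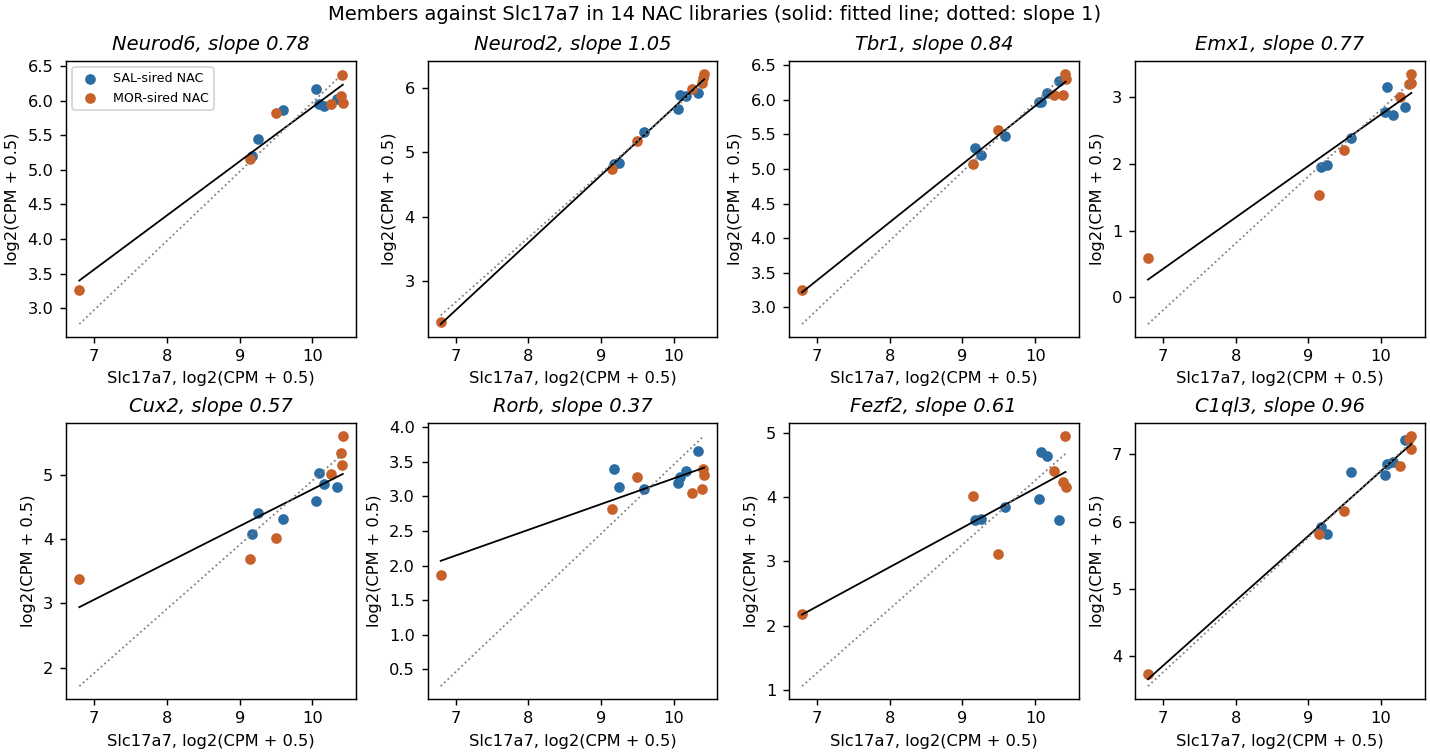
Each of the other 8 genes against Slc17a7 in the 14 NAC libraries, both axes as log2(CPM + 0.5) without TMM scaling; the solid line is the least-squares fit, with its slope in the panel title, and the dotted line has a slope of 1. Neurod2 and C1ql3 lie along the dotted line, and Rorb is nearly level apart from MOR-sired NAC 4 at the far left.

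The 36 pairs among the 9 genes had a median r of 0.87 in the NAC, from 0.623 for Cux2 with Rorb to 0.998 for Slc17a7 with Neurod2, and none was negative. All share the same libraries, so these values are a description. Other genes of the cortical lists moved similarly in part. Of 11 tested genes on a list of other pan-cortical glutamatergic markers, 10 had a positive r with Slc17a7 (median 0.926), and Nptx1, a neuronal pentraxin, had 0.991 at 159 ± 54.7 CPM (SD, n = 14). Camkv, a kinase-like gene and the most abundant of that list at 418 ± 71.9 CPM, had r = −0.829. For comparison, 48.4% of 18219 genes had a positive r, with a median of −0.031.

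Other layer markers were split. Of 8 other upper-layer genes 5 had a positive r with Slc17a7 (median 0.767), but the most abundant ones, Cux1 (64.1 ± 10.4 CPM) and Otof (19.5 ± 11.1 CPM), had −0.819 and −0.754. Of 10 other deep-layer genes 6 were positive (median 0.27), with Ccn2, a marker of the deepest cortical layer, at 0.922 and Tle4, a corepressor of corticothalamic neurons that striatal neurons also express, at −0.797. Of the 4 claustrum and endopiriform markers 2 were positive. Nr4a2 had 0.893 and Gnb4 −0.044. Genes of the same list thus moved in opposite directions across these punches.

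Transcripts of other cell types in the same punches moved with the 9 genes to different degrees. All 11 striatal projection neuron genes had a negative r with Slc17a7 (median −0.739). Ppp1r1b had r = −0.757 (permutation p = 0.00086, adjusted p = 0.00178), or −0.902 without MOR-sired NAC 4 and 6. By rank the value was −0.956 (Spearman's rho, permutation p = 1e-05, adjusted p = 3.4e-05). Summed over the 11 striatal genes, SAL-sired NAC held 1707 to 6227 CPM and MOR-sired NAC 573.7 to 8370 CPM, and no gene of the list was at 0 in all libraries. Oligodendrocyte genes had a positive r in 8 of 8 (median 0.439). Mbp, the myelin basic protein gene, had r = 0.558 (permutation p = 0.0281, adjusted p = 0.0299), with 0.455 for rho (permutation p = 0.104, adjusted p = 0.118). The subcortical transporter Slc17a6, at 8.07 ± 3.06 CPM, had r = 0.861 (permutation p = 0.00242, adjusted p = 0.00316) and 0.515 without the pair. Its rho was 0.547 (permutation p = 0.0464, adjusted p = 0.0607). The median r was 0.408 over 8 interneuron genes, 0.237 over 7 astrocyte genes and 0.217 over 6 microglial genes. It was 0.473 over 6 oligodendrocyte precursor genes, 0.273 over 5 choroid plexus genes and −0.53 over 4 hippocampal genes. Most of these lists were mixed in sign. The interneuron genes ran from −0.808 to 0.935, with 5 positive and 3 negative. The values were negative for 3 astrocyte, 2 microglial and 1 choroid plexus genes, and positive for 1 hippocampal gene. The part of these cells in the levels of the 9 genes was not tested.

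The genes outside the list whose NAC pattern was most like that of Slc17a7 were Cck (r = 0.995), Kcnj6, Tp53i11 and Slc6a7 (each 0.994), and Kcnc4 and Ttc22 (each 0.993), over 14 libraries and among 11616 genes with a mean of at least 5 CPM. Cck, which encodes the neuropeptide cholecystokinin, ran from 196.7 to 2604 CPM. Slc6a7, the brain proline transporter, ran from 10.5 to 76.7 CPM. The most opposed patterns were those of Ccdc30 (−0.974), Dpf1 (−0.961), Fam8a1 (−0.959) and Sgce (−0.956).

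A layer index was formed from Cux2 and Rorb (upper) against Fezf2 and Tbr1 (deep). It is the mean log2 level of the first pair minus that of the second. The difference was below 0 in all 14 NAC libraries, at −0.92 ± 0.35 (SD, n = 14), and Tbr1 was the most abundant of the 4 genes on average. Its sign depends on the general levels of the 4 genes. No cortex library was at hand as a reference, so the sign does not tell which layers a punch held. Cux2 and Rorb also averaged 16.5 and 8.25 CPM in the VTA, where the median of Slc17a7 was 4.07 CPM. The difference was −0.94 ± 0.24 in SAL-sired NAC, from −1.26 in SAL-sired NAC 2 to −0.66 in SAL-sired NAC 7. In MOR-sired NAC it was −0.91 ± 0.45, from −1.39 in MOR-sired NAC 3 to −0.09 in MOR-sired NAC 4. The sire groups overlapped, and their means differed by 0.03, or by −0.10 without MOR-sired NAC 4, which is less than the SD of either group. As a score over chosen genes the difference was given no test. This index went down as Slc17a7 went up, with r = −0.703 over the 14 libraries but −0.286 over the 13 without MOR-sired NAC 4, which had both the least Slc17a7 and the highest index. Over the 14 libraries the upper genes themselves fell as the index rose, with r = −0.463 for Cux2 and −0.501 for Rorb. The deep genes had −0.903 (Fezf2) and −0.684 (Tbr1). All 8 members other than Slc17a7 had a negative r with the index, with a median of −0.685 against 0.019 over all genes. A higher index thus did not go with more Cux2 or Rorb. The part that the total of cortical transcripts has in the index was not tested.

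The ratios of single genes varied both between and within layer classes. Cux2 over Tbr1 (upper over deep) ran from 0.335 in MOR-sired NAC 1 to 1.10 in MOR-sired NAC 4, a 3.27-fold range that was 1.85-fold without the latter. The other ratios of an upper to a deep gene spanned 3.54-fold (Cux2 over Fezf2), 3.46-fold (Rorb over Fezf2) and 3.01-fold (Rorb over Tbr1), and without MOR-sired NAC 4 they spanned 3.54-fold, 3.46-fold and 2.23-fold. Within a layer class, Cux2 over Rorb, both upper, ran from 1.63 in SAL-sired NAC 3 to 5.14 in MOR-sired NAC 2 (3.16-fold), and Fezf2 over Tbr1, both deep, from 0.157 in SAL-sired NAC 1 to 0.475 in MOR-sired NAC 6 (3.02-fold). Leaving out MOR-sired NAC 4 left both of these within-class ranges as they were. The within-class ranges thus lay among those of the 4 ratios between classes, from 3.01-fold to 3.54-fold.

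The layer genes were also compared by correlation. The upper pair Cux2 and Rorb had r = 0.623 (permutation p = 0.0122, adjusted p = 0.0138), and 0.012 without MOR-sired NAC 4 and 6. Their rho was 0.437 (permutation p = 0.121, adjusted p = 0.129). The deep pair Fezf2 and Tbr1 had r = 0.819 (permutation p = 0.00133, adjusted p = 0.00212), and 0.472 without MOR-sired NAC 3 and 4. Their rho was 0.622 (permutation p = 0.0202, adjusted p = 0.0286). Across classes, Cux2 with Tbr1 had r = 0.852 (permutation p = 1e-05, adjusted p = 2.43e-05) and 0.826 without MOR-sired NAC 4 and 6, the libraries also left out for the next 3 pairs. Cux2 was thus closer to the deep gene Tbr1 than to its partner Rorb, although the difference between these correlations was not tested. Cux2 with Fezf2 had r = 0.755 (permutation p = 0.00137, adjusted p = 0.00212) and 0.706 without them. Rorb with Tbr1 had 0.884 (permutation p = 0.002, adjusted p = 0.00283) and 0.326, and Rorb with Fezf2 had 0.636 (permutation p = 0.0354, adjusted p = 0.0354) and −0.011. The rho of Rorb with Fezf2 was 0.235 (permutation p = 0.419, adjusted p = 0.419).

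The genes whose NAC levels rose most closely with the index were Tcp11l2 (r = 0.916), Lysmd3 (0.88), Kctd12 (0.866) and C12h7orf50 (0.855). Those most opposed were Fkbp4 (−0.922), Hgh1 (−0.899), Bhmt (−0.894) and S100a1 (−0.894). Fkbp4, a co-chaperone of steroid receptors, ran only from 124.6 to 165.6 CPM, and none of the 8 is on the layer lists. Of 8 other upper-layer genes 3 had a positive r with the index and 5 a negative one. Of 10 other deep-layer genes 3 were positive and 7 negative. All values of r in this paragraph include MOR-sired NAC 4, the library with the highest index, and none was computed without it.

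**Figure D3:**
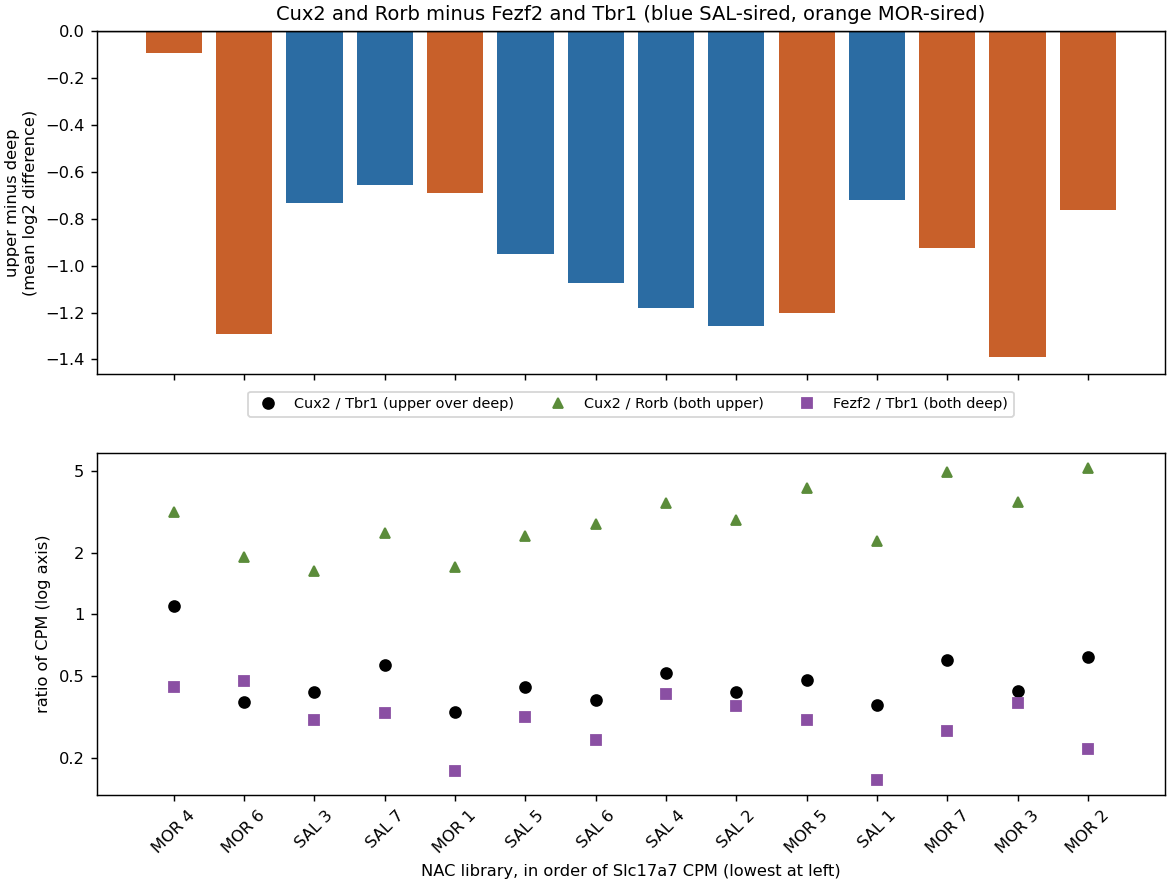
Layer genes in the 14 NAC libraries in order of Slc17a7; the upper panel gives the mean log2 level of Cux2 and Rorb minus that of Fezf2 and Tbr1 (blue SAL-sired, orange MOR-sired), and the lower panel 3 ratios of CPM on a log axis. All bars are below 0 and MOR-sired NAC 4 has the shortest, while the ratios within a class spread about as far (3.16-fold and 3.02-fold) as Cux2 over Tbr1 (3.27-fold, or 1.85-fold without MOR-sired NAC 4).

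The design asks whether a father's morphine intake goes with transcript levels in the offspring. In the NAC none of the 9 genes passed, and the sire groups overlapped for each. Slc17a7 had a lowest level of 575.7, a median of 1060 and a highest level of 1287 CPM in SAL-sired NAC, against 110.6, 1220 and 1366 CPM in MOR-sired NAC. The MOR-sired libraries held both the lowest and the highest levels. TMM-scaled means were 939 ± 280 and 956 ± 500 CPM (SD, n = 7 each). The fold was 1.02, with 95% bounds of 0.555 and 1.87 (edgeR's quasi-likelihood test, log2 fold change 0.03, SE 0.41, adjusted p = 1). The interval covers lower as well as higher levels. Rorb was the member with the smallest p: its lowest, median and highest levels were 8.10, 9.25 and 12.2 CPM in SAL-sired and 3.16, 8.14 and 10.0 CPM in MOR-sired libraries. Its TMM-scaled means were 9.55 ± 1.38 and 7.75 ± 2.40 CPM, a fold of 0.812 (0.601 to 1.10, edgeR adjusted p = 0.921).

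Of the 9 genes 0 passed at an adjusted p under 0.05, where the share over all 18220 genes tested was also 0%, and 0 had an unadjusted p under 0.05 (6.18% of all genes). DESeq2 and limma-voom also called 0 of the 9. No member separated the groups, which 0.0659% of genes did. Fitted values were above 0 for 4 genes and below 0 for 5, where 50.5% of all genes were below 0, with a median of −0.02 against −0.001 over all genes tested. Of the other cortical markers tested (11 pan-cortical, 8 upper-layer and 10 deep-layer genes), 0 passed in either direction. Apart from Rorb (−0.30) and Cux2 (0.19) the log2 fold changes lay between −0.09 and 0.10, with SE between 0.34 and 0.43. Without MOR-sired NAC 4 those of Slc17a7, Neurod2 and Cux2 were 0.22, 0.27 and 0.33, and that of Rorb was −0.17. With the log2 level of Slc17a7 as a covariate, Rorb had −0.27 (unadjusted p = 0.0277, adjusted p = 0.434 in edgeR), and no other member had an unadjusted p under 0.05.

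In the VTA, C1ql3 and Neurod2 were lower in MOR-sired libraries at an unadjusted p, and neither passed adjustment. In the order of their numbers, SAL-sired libraries 1 to 5 held 7.87, 6.69, 13.2, 16.4 and 4.58 CPM of C1ql3, and MOR-sired libraries 1 to 5 held 5.53, 4.82, 3.18, 4.03 and 4.81 CPM. SAL-sired VTA 3 and 4 were the high ones, and SAL-sired VTA 5 lay among the MOR-sired libraries, so the groups overlapped by that library alone. The TMM-scaled means were 9.45 ± 4.71 and 4.64 ± 1.03 CPM (SD, n = 5 each), and the fold was 0.489 (95% bounds 0.297 and 0.803). In edgeR the log2 fold change was −1.03 (SE 0.32, unadjusted p = 0.00914, adjusted p = 0.804). It was −1.14 without SAL-sired VTA 2, −0.76 without SAL-sired VTA 4 and −0.94 without the 4 libraries with Xist (unadjusted p = 0.0544).

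Neurod2, too, was high in some SAL-sired libraries. SAL-sired libraries 1 to 5 held 1.16, 5.98, 2.05, 5.44 and 0.244 CPM, and MOR-sired libraries 1 to 5 held 0.503, 0.694, 0.352, 0.937 and 0.713 CPM. SAL-sired VTA 2, 3 and 4 stood out, and SAL-sired VTA 5 was the lowest of all. The fold was 0.232 (0.0789 to 0.680, from 2.88 ± 2.50 and 0.667 ± 0.254 CPM). In edgeR the log2 fold change was −2.11 (SE 0.70, unadjusted p = 0.0126, adjusted p = 0.857), and it was −1.70 without SAL-sired VTA 2 and −2.44 without the 4 libraries with Xist (unadjusted p = 0.0221). SAL-sired VTA 3 and 4 also differed in other transcripts, a comparison made after the values were seen: Slc17a6 was at 129.8 and 122.7 CPM there and at 20.6 to 62.2 CPM in the other 8 libraries. Tph2, the serotonin-synthesis enzyme of the raphe, was at 14.9, 56.1, 0.573, 0.330 and 45.4 CPM in SAL-sired libraries 1 to 5 and at 156, 139.8, 59.7, 141.7 and 76.7 CPM in MOR-sired libraries 1 to 5. Tph2 was thus lowest in SAL-sired VTA 3 and 4, and its level was higher in each MOR-sired library than in any SAL-sired one. The part of these differences between punches in the values of C1ql3 and Neurod2 was not tested.

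Slc17a7, Neurod6 and Tbr1 had lower means in MOR-sired VTA through SAL-sired VTA 2. SAL-sired libraries 1 to 5 held 14.9, 84.5, 1.08, 2.32 and 0.519 CPM of Slc17a7, and MOR-sired libraries 1 to 5 held 11.7, 9.12, 0.556, 5.82 and 1.56 CPM. Without SAL-sired VTA 2 both groups cover a like range. In edgeR the log2 fold change of Slc17a7 was −1.72 (SE 1.30, adjusted p = 0.98) with that library and 0.42 without it. For Tbr1 it was −3.08 (SE 1.36, unadjusted p = 0.0463, adjusted p = 0.933) with it and 0.17 without it. For Neurod6, at 6.45, 24.5, 7.25, 9.59 and 4.61 CPM in SAL-sired and 6.14, 3.43, 5.11, 5.62 and 7.56 CPM in MOR-sired libraries, it was −0.83 (SE 0.41, adjusted p = 0.953) and −0.25. Without the 4 libraries with Xist, the log2 fold changes were −1.14, −2.40 and −1.18 for Slc17a7, Tbr1 and Neurod6. The direction of Slc17a7 and Tbr1, and most of the size for Neurod6, thus came from 1 library.

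Cux2 and Rorb varied least of the members across VTA libraries, over a 1.43-fold and a 2.16-fold range. Rorb ran from 4.99 CPM in MOR-sired VTA 2 to 10.8 CPM in SAL-sired VTA 3. SAL-sired libraries 1 to 5 held 14.9, 17.4, 17.7, 17.8 and 17.4 CPM of Cux2, and MOR-sired libraries 1 to 5 held 13.8, 13.3, 18.0, 15.5 and 19.0 CPM. The fold of Cux2 was 0.990 (95% bounds 0.871 and 1.12, edgeR adjusted p = 1), the narrowest interval of the members. Rorb had a fold of 0.866 (0.715 to 1.05, edgeR adjusted p = 0.961). Emx1 and Fezf2 fell below edgeR's filter on low values in the VTA. Their exact permutation tests on log2(CPM + 0.5) gave two-sided p = 0.175 and 0.595, where the smallest p that 5 against 5 libraries allow is 0.00794.

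Of the 7 members that passed the filter in the VTA, 0 were called at an adjusted p under 0.05 by edgeR, where 0% of the 19923 genes tested were called, and DESeq2 and limma-voom also called 0, with no adjusted p from DESeq2 for Tbr1. An unadjusted p under 0.05 with a lower MOR-sired level was found for 3 of the 7 in edgeR, where 2.56% of all genes had the same (5.31% in either direction). Of the other cortical markers tested (9 pan-cortical, 8 upper-layer and 10 deep-layer genes), 0 passed in either direction. Fitted values were below 0 for 8 of the pan-cortical, 6 of the upper-layer and 7 of the deep-layer genes. An unadjusted p under 0.05 in edgeR was found for 3, 1 and 1 of them, each with a lower MOR-sired level. No member separated the groups, which 0.908% of genes did. The fitted values of all 7 members were below 0 (52.6% of all genes), with a median of −1.03 against −0.007 over all genes. SAL-sired VTA 2 was the highest library for 4 of these 7 genes (Slc17a7, Neurod6, Neurod2 and Tbr1), and these counts are a description.

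**Figure D4:**
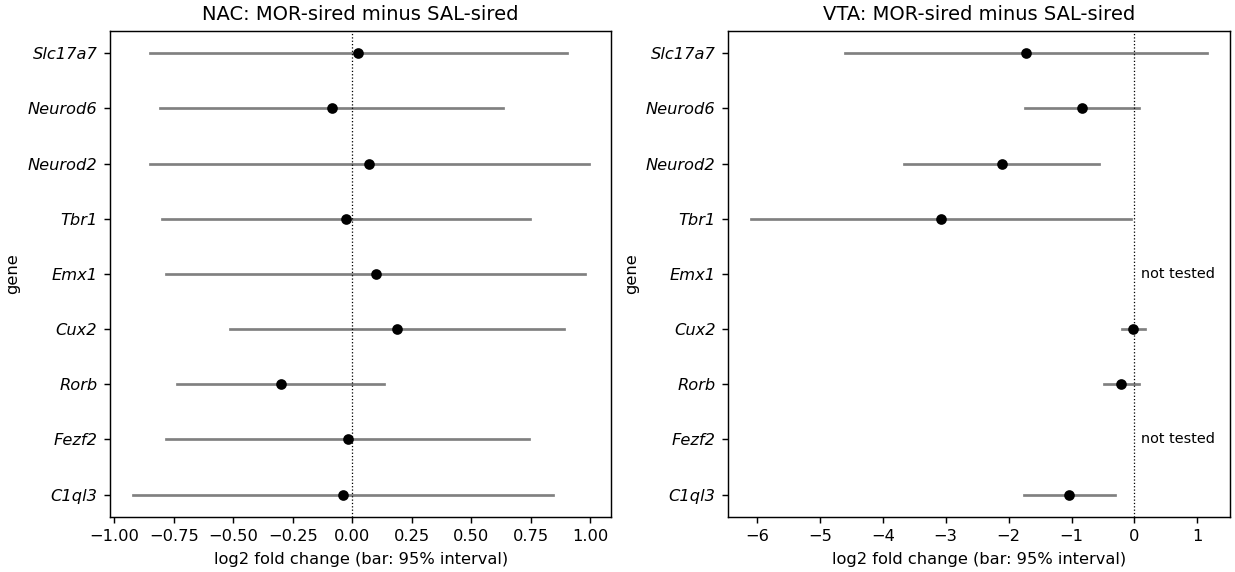
Log2 fold change of each gene between sire groups (MOR-sired minus SAL-sired, edgeR), with 95% intervals, in NAC and VTA; the axes differ in scale. All NAC intervals include 0, those of Neurod2, Tbr1 and C1ql3 in the VTA lie below 0 before adjustment, and Emx1 and Fezf2 were not tested in the VTA.

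SAL-sired VTA 2 had the highest VTA level of Slc17a7, Neurod6, Neurod2, Tbr1, Emx1 and Fezf2, and 5 of the 9 genes exceeded the next library by over 2-fold. Over all genes tested, 12.4% were highest in this library and 0.256% exceeded the next by over 2-fold. Tbr1 stood at 17.1 CPM against at most 0.836 CPM in the other 9 libraries, and Emx1 at 1.74 CPM against at most 0.158 CPM. The summed level of the 9 genes was 168.6 CPM, against 34.6 to 59.4 CPM elsewhere. Among markers that are not members, and chosen after their values were seen, the LIM-homeobox gene Lhx2 stood at 5.97 CPM (at most 0.834 elsewhere) and Tshz2 at 48.7 CPM (at most 20.8). Of the lists as a whole, 8 of 12 other pan-cortical genes were highest there (2 by over 2-fold), 4 of 10 other deep-layer genes (1 by over 2-fold, Tshz2) and 0 of 8 other upper-layer genes. The pan-cortical list summed to 282.9 CPM, above the 158.8 to 262.2 CPM of the other libraries. The deep-layer sum of 165.5 CPM and the upper-layer sum of 104.1 CPM lay inside the ranges of the others (106.9 to 169.0 and 72.5 to 110.6 CPM). The dopamine neuron genes of the same library summed to 5051 CPM, inside the range of 3519 to 7836 CPM of the other libraries. Fezf2 stood at 0.591 CPM there and C1ql3 at 6.69 CPM, below SAL-sired VTA 1, 3 and 4. The source of these transcripts was not tested.

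**Figure D5:**
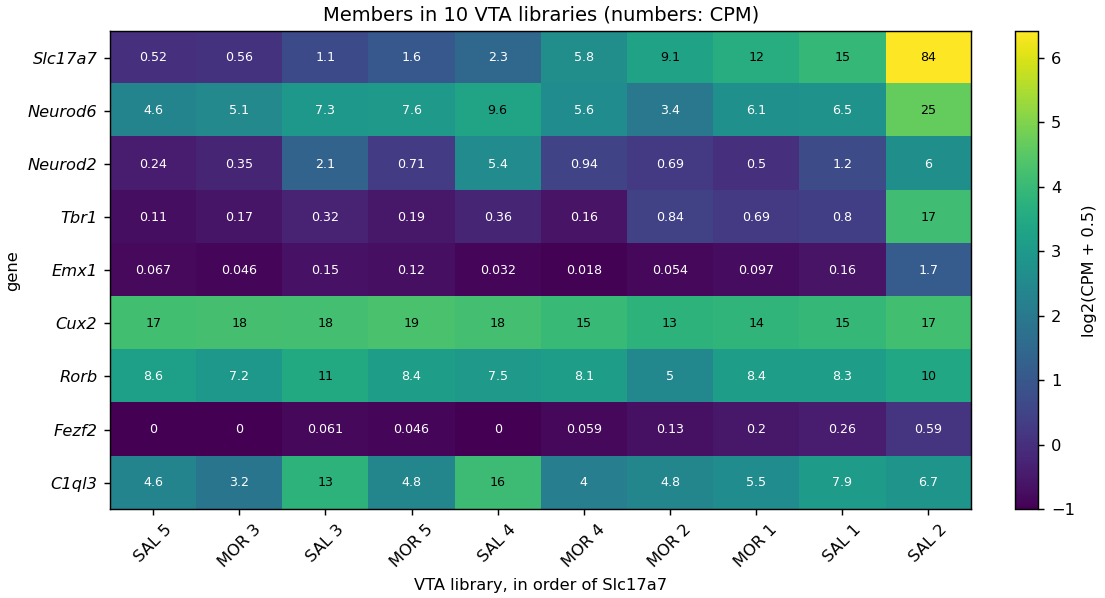
CPM of the 9 genes in the 10 VTA libraries, in order of Slc17a7; colour is log2(CPM + 0.5) and the printed numbers are CPM to 2 digits. SAL-sired VTA 2 at the right is high in Slc17a7, Neurod6 and Tbr1, while Cux2 and Rorb vary least across libraries and C1ql3 is highest in SAL-sired VTA 3 and 4.

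Among the VTA libraries the members moved together less than in the NAC, with a median r of 0.387 over 36 pairs (−0.553 to 0.949). Of 11 VTA pairs tested, Slc17a7 with Fezf2 (r = 0.935, permutation p = 5e-05, adjusted p = 0.00055, rho = 0.914) and with Tbr1 (r = 0.843, permutation p = 0.00061, adjusted p = 0.00335, rho = 0.83) passed. The permutation p of rho was 0.00058 and 0.00474, adjusted 0.00638 and 0.0261. Without SAL-sired VTA 2 and 5, the libraries farthest from the median of Slc17a7, r was 0.868 and 0.785, at Fezf2 and Tbr1 levels under 1 CPM. Without the 4 libraries with Xist r was 0.95 and 0.865 over 6 libraries, and neither passed, with an adjusted p of 0.0537 for both (permutation). Slc17a7 with Neurod6 had r = 0.588 (permutation p = 0.0701, adjusted p = 0.193), and −0.066 without SAL-sired VTA 2. Slc17a7 with Cux2 had r = −0.553 (permutation p = 0.101, adjusted p = 0.223), and −0.853 without SAL-sired VTA 2, where it passed. Without the 4 libraries with Xist, r of Slc17a7 with Cux2 was −0.263.

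Neurod6 was compared with dopamine neuron genes in the VTA because of its known place there. It was detected in every VTA library at 3.43 CPM or more, including those with Slc17a7 under 1 CPM. Its r was −0.367 with Th (permutation p = 0.314, adjusted p = 0.417), −0.329 with the dopamine transporter gene Slc6a3 (permutation p = 0.341, adjusted p = 0.417) and 0.393 with Slc17a6 (permutation p = 0.272, adjusted p = 0.417). The rho values were −0.43, −0.527 and 0.624, with permutation p of 0.218, 0.123 and 0.0597. None of the 3 relations passed, and their size depended on the libraries in. Without SAL-sired VTA 2 and MOR-sired VTA 2, the libraries farthest from the Neurod6 median, r was −0.692, −0.706 and 0.662. Without SAL-sired VTA 2 alone it was −0.378, −0.45 and 0.685. Over the 6 libraries without Xist it was −0.113, −0.022 and 0.338. The genes most like Neurod6 over the 10 libraries, among 11724 ranked, were Hivep2 (r = 0.962), Fam81a (0.959), Rasgrp1 (0.942), Nkrf (0.938), Fosl2 (0.937) and Dlgap1 (0.934).

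Relatives of the 9 genes differed in where they were high. In mean CPM, Slc17a6 was at 8.07 in NAC and 53.8 in VTA, the reverse of Slc17a7, and the third transporter Slc17a8 was at 3.24 and 0.835. Neurod1 was at 4.98 and 0.439 CPM, and Emx2 at 6.48 and 1.498 CPM. These went the way of Neurod2 and Emx1. Cux1, at 64.1 and 59.3 CPM, exceeded Cux2 in both regions, and Rora was at 2.73 and 5.31 CPM. The C1q-like relatives had higher means in the VTA: C1ql1 33.1 and 86.2 CPM, C1ql2 12.4 and 41.9 CPM and C1ql4 0.118 and 6.57 CPM, whereas C1ql3 was at 99.6 and 7.12 CPM. Within the NAC, r with Slc17a7 was 0.925 for Neurod1, 0.92 for C1ql1, 0.476 for Emx2, −0.583 for Rora, −0.738 for C1ql2, −0.807 for Slc17a8 and −0.819 for Cux1. With the 0.861 of Slc17a6, 4 of the 8 relatives tested had a positive r with Slc17a7 and 4 a negative one.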

How the data were processed

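Total RNA of frozen punches was purified over columns and made into directional libraries, per the labels' protocols. Per the submitters' processing notes, the authors used Trim Galore, kallisto and DESeq2, with no versions. The deposited values are estimated counts, made by the authors, per the file names, by scaling transcript abundances (TPM) to each library's total, with no correction between libraries. They are not read counts, so no counting interval was computed. The sources used here do not give the build, annotation or strand setting.

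Estimated counts were rounded. In each region, genes kept by filterByExpr were tested with edgeR's quasi-likelihood test (TMM, intercept and sire group, Benjamini-Hochberg over 18220 NAC or 19923 VTA genes, two-sided). All 9 genes passed the filter in NAC and 7 in VTA. Correlations used log2(TMM-scaled CPM + 0.5) and 100000 permutations, adjusted over 17 NAC and 11 VTA pairs. Single-library levels are plain CPM. Tools were edgeR 4.0.16, DESeq2 1.42.0 and limma 3.58.1, run in R 4.3.3. The edgeR script was tested on simulated data. Promoter windows came from RefSeq (GRCr8).

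Named genes were the 9 genes, those ranked by likeness, paralogues, and the 2 most abundant of each list. Lhx2, Tshz2 and Tph2, and Xist and Ddx3y as a check of the labels, fall outside this rule and were chosen after their values were seen. The genes and lists were chosen with earlier results of these data known. Alternatives covered scaling, filter, tool, pseudocount, covariates, a replicate block and left-out libraries.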

Additional observations from a re-analysis of the deposited data

Results flagged for a closer look

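Dixon's criterion was applied to 38 groups: 36 of a gene, region and sire group, and the layer index in the 2 NAC sire groups. In 5 of them a library lay far from the others. Its chance rate of about 1 in 20 groups is for independent, normally distributed values. These groups share libraries, so that rate need not apply, and the flags are not separate events. Of the 5 flags, 4 were in SAL-sired VTA 2. Slc17a7 stood there at 84.5 CPM, with the other SAL-sired VTA libraries at 0.519 to 14.9 CPM. Neurod6 stood at 24.5 CPM (others 4.61 to 9.59), Tbr1 at 17.1 CPM (others 0.11 to 0.799) and Emx1 at 1.74 CPM (others 0.0319 to 0.158). In SAL-sired VTA 1, Cux2 was low at 14.9 CPM, with the others at 17.4 to 17.8 CPM, although MOR-sired VTA libraries reached lower.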

How the results depend on the processing

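No sire effect was called over all genes by edgeR (0 in each region), which held under RLE, upper-quartile and total-count scaling, without the filter, with the replicate block and without each library. DESeq2 called 74 NAC and 121 VTA genes and limma-voom 52 NAC genes, none of them a member, and the cause was not tested. At an unadjusted p under 0.05 edgeR had 1126 NAC and 1058 VTA genes. Leaving out a library moved the number of NAC pairs called between 9 and 17 and of VTA pairs between 2 and 3. Without the 4 VTA libraries with Xist it was 0, with 6 libraries left, and Slc17a7 with C1ql3 had r = −0.744.

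Near-zero fold changes changed sign. In NAC, limma-voom gave 0.04 for Tbr1, 0.022 for Fezf2 and 0.013 for C1ql3. The Slc17a7 covariate gave 0.001 for Fezf2. Library names 1 to 8 against 9 to 14 as a covariate gave 0.075, 0.085 and 0.097 for Tbr1, Fezf2 and C1ql3. Without SAL-sired VTA 2 and the 4 libraries with Xist, an alternative chosen after seeing the data, VTA Slc17a7 had 0.924 and Tbr1 0.833.

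Replicate numbers showed no clear pairing of the samples: same-numbered libraries correlated between −0.344 and 0.147 in NAC and between −0.166 and 0.147 in VTA. In the VTA the same-numbered libraries 1 and 2 were nonetheless each other's best partner, at r = 0.031 and 0.147. The replicate block gave −0.164 for Slc17a7, −0.119 for Neurod2 and −0.078 for Emx1 in NAC, and called 0 genes in both regions.

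Leaving out each library gave these log2 ranges in NAC: Slc17a7 −0.09 to 0.219, Neurod6 −0.231 to 0.098, Neurod2 −0.054 to 0.269, Tbr1 −0.161 to 0.158, Emx1 −0.049 to 0.284, Fezf2 −0.257 to 0.149 and C1ql3 −0.191 to 0.151. In VTA they were −2.116 to 0.418 for Slc17a7, −3.557 to 0.17 for Tbr1 and −0.056 to 0.042 for Cux2. VTA correlations of Slc17a7 ranged from −0.066 to 0.725 with Neurod6, from −0.271 to 0.362 with Rorb and from −0.136 to 0.255 with C1ql3. The median NAC slope was 0.779, and 0.647 with a pseudocount of 2 CPM. Levels under 1 CPM limit what can be said of Tbr1, Emx1 and Fezf2 in the VTA.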
